A study of Oryzias latipes with 5 samples.

Results

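Glycolysis, the route from glucose to pyruvate, was described together with the transporters that move glucose and lactate across membranes and the enzymes that pass pyruvate to the mitochondria. The genes were taken from the deposited table by their symbols, which named hexokinases, glucose-6-phosphate isomerase, 6-phosphofructokinases and their PFKFB regulators, aldolases, the enzymes from triosephosphate isomerase to pyruvate kinase, lactate dehydrogenases, pyruvate dehydrogenase and its kinases, and the SLC2A and SLC16A carrier families. There were 78 such genes of 25689 in the table. Symbols alone decided which genes belonged, but the group was chosen with earlier results of these data known.

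RNA was sequenced from cells of medaka (Oryzias latipes), a laboratory fish, of the Cab strain, raised at 30 °C up to day 10 after fertilization. The Mutant group had the genotype col10a1wt/mut, col10a1:nlGFP+/+ (2 libraries) and the WT group, of sibling fish, the genotype col10a1wt/wt, col10a1:nlGFP+/+ (3 libraries), all described as biological replicates. Both groups were thus homozygous for the reporter, a nuclear GFP under col10a1 control, and the mutants kept a wild-type copy of col10a1, the gene of type X collagen, which hypertrophic cartilage cells make. The cells are labelled as chondrocytes and osteoblast progenitors and as expressing the reporter. The sources used here do not say which mutation was used, how cells were sorted or how many fish went into a library. In such bulk samples fewer cells of a type and less RNA per cell cannot be told apart.

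Glycolysis breaks glucose down to pyruvate, with the committing step at 6-phosphofructokinase, and yields ATP without oxygen. Pyruvate is then either reduced to lactate, which leaves the cell through monocarboxylate carriers, or oxidized by pyruvate dehydrogenase, which the pyruvate dehydrogenase kinases switch off. Cartilage has few or no blood vessels, and chondrocytes are known to rely on glycolysis. Osteoblasts also take up much glucose and release lactate. Several steps have tissue forms: the L-type pyruvate kinase and the transporter GLUT2 are known from liver, and aldolase A and the M-type 6-phosphofructokinase from muscle.

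Levels are given as FPKM, in which the authors divided fragments by gene length and library size, and differences as Mutant minus WT on the log2(FPKM + 1) scale, which understates the change of low genes. Libraries held 25580595 and 27916294 reads for the mutants and 24791662 to 28012092 for WT. In the deposited scaling, 3 reads on a gene of 1 kb equalled 0.0871 to 0.120 FPKM, a limit that covers counting error only. The denominator of that scaling was 1.23 times the reads in mutant library 2 and 0.980 to 1.08 times in the other libraries. Mutant library 2 stood apart. It had reads on 12334 genes, against 21134 in mutant library 1 and 19397 to 20692 in WT libraries, and of 5977 genes with at least 5 FPKM in the other 4 libraries 374 had no read in it. Its log2 levels correlated with those of the other libraries at 0.80 to 0.82 across genes, whereas all other pairs reached 0.95 to 0.97. Both mutants were below every WT library for col10a1a, at 4055 and 4135 FPKM in the mutants, against 5384, 7272 and 6781 FPKM in WT, while col10a1b overlapped between the groups, and neither passed the test. A heterozygous change of unknown kind makes no prediction for this level, so it did not check the labels. Levels are therefore given by library, and the counts of genes called also without mutant library 2. Counts of genes lower or higher in mutants include that library unless stated.

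No gene of the group passed the test for a difference between the genotypes. Of the 78 genes, 59 reached 1 FPKM in at least 2 libraries and were tested with limma together with all 13680 genes that did, and 0 of 59 had an adjusted p under 0.05, beside 1 gene among all those tested (0.00731%), which was no member. At an unadjusted p under 0.05 stood 10 of the 59 genes (limma), all lower in mutants, and a fit to the reads recovered from the FPKM (voom) also called 0 (0.00731% of all genes) and had 16 (background 11.2%). Among all genes 1479 (10.8%) reached that unadjusted level, 1040 of them lower in mutants (7.60%). Of the 10 genes of the group, SLC2A4 had passed the filter through WT libraries alone. Without mutant library 2, 0 of 58 were called (background 0.0149%) and 3 had an unadjusted p under 0.05 (background 7.08%). With mutant library 2 alone against WT, on the assumption that it varied like a WT library, 40 of 58 were called, as were 54.3% of all genes.

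The levels leaned lower in mutants, mostly in mutant library 2. The log2 difference was below 0 for 49 of 59 genes (83.1%), against 65.9% of all genes tested, or for 45 with median-of-ratios scaling and 43 with quantile normalization, and the median was -0.55, against -0.31 over all genes. Both mutants lay below every WT library for 26 genes (44.1%, background 26.0%) and above every WT library for 1, SLC2A9 (background 8.33%). The 26 and the 49 both include SLC2A4, eno1b and pdk3a, which passed the filter through WT libraries alone. Taken singly, mutant library 2 was below every WT library for 45 of the 59 genes (background 55.4%) and mutant library 1 for 29 (background 40.6%). Mutant library 1 differed from the WT mean by a median of -0.23 over the 59 genes (-0.16 over all genes), mutant library 2 by -1.01 (-0.49 over all genes), and the WT libraries by -0.047 to 0.068. Without mutant library 2 the median difference of the genes was -0.24, against -0.16 over all genes.

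Among the 16 genes of the group with a mean of at least 20 FPKM, 15 were lower in mutants (16 with quantile normalization), against 54.7% of 2846 such genes in all. The median difference was -0.41, against -0.065 over all genes at that level. None of the 16 lacked reads in mutant library 2. Mutant library 2 was below every WT library for 14 of them, all but slc2a2 and tpi1b (background at that level 42.9%). Mutant library 1 was below every WT library for 6 (37.5%, background 36.4%) and above every WT library for 3 (18.8%, background 28.5%). Against the WT mean they differed by a median of -0.17 in mutant library 1 (-0.061 for all genes at that level) and of -0.81 in mutant library 2 (-0.032 for all). The 43 tested genes under 20 FPKM had a median of -0.74, against -0.40 for all genes there. Of the tested genes, 10 had no read in mutant library 2 (16.9%, background 23.6%). A further limit is that 3, SLC2A4, eno1b and pdk3a, had passed the filter through WT libraries alone, which favours a lower value in mutants.

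**Figure D1:**
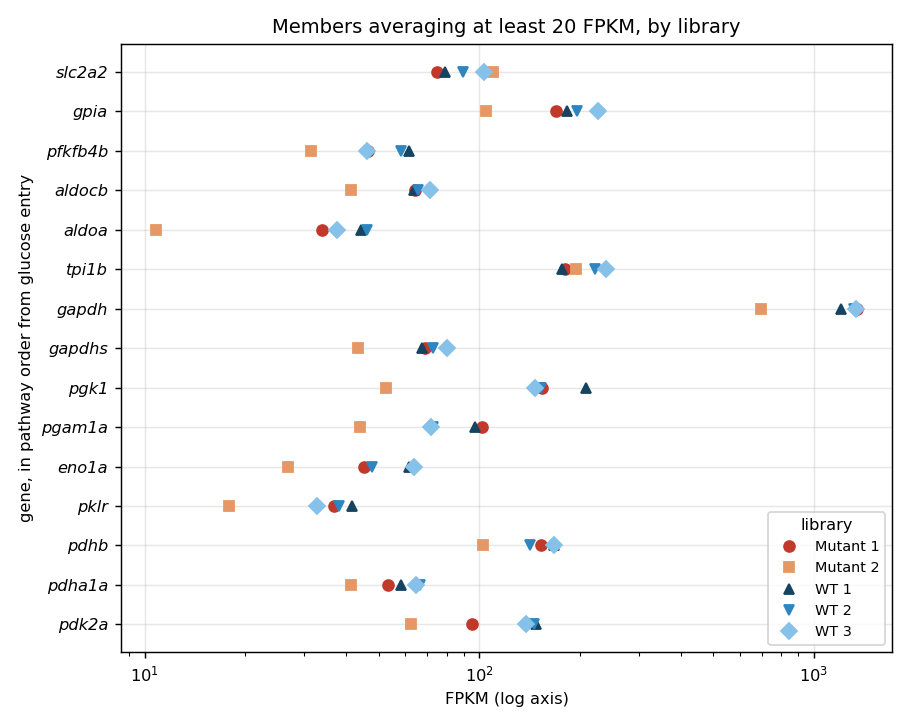
FPKM (x axis, log scale) in each of the 5 libraries (symbols) of 15 genes of the group with a mean of at least 20 FPKM, in pathway order. Gapdh is the highest in every library, and mutant library 2 is the lowest library for 13 of the 15 genes drawn.

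Summed over the group, the genes came to 4790 and 2672 FPKM in the mutants, against 4663, 4541 and 4383 FPKM in WT. They took 1.46% and 0.992% of all reads in the mutants and 1.5% in each WT library. A few abundant genes set most of these sums, whereas the median gene was below the WT mean in both mutants (-0.23 and -1.01).

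Glucose enters cells through the SLC2A carriers, of which 19 were in the table and 10 were tested. Slc2a2, the gene of GLUT2, a low-affinity carrier best known from liver and pancreas, was by far the highest, with 74.7 and 110 FPKM in mutants, against 79.1, 89.2 and 104 FPKM in WT. The mutants stood at both ends of that range, below and above every WT library, and the difference was 0.0081 (SE 0.26, adjusted p = 0.987, limma). Slc2a2 made 68.7% and 79.7% of all SLC2A FPKM in mutants and 65.9% to 72.0% in WT. SLC2A9, a carrier of urate, had 19.0 and 18.5 FPKM in mutants, against 16.8, 18.1 and 16.7 FPKM in WT, with a difference of 0.12 (SE 0.27) that was smaller than its error although the groups did not overlap.

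The other carriers were low. Slc2a15b had 3.12 and 0 FPKM in mutants, against 4.49, 9.44 and 7.57 FPKM in WT. WT was higher in all 3 libraries, and the difference of -1.96 (SE 0.67, adjusted p = 0.399, limma) became -0.94 without mutant library 2. Slc2a11a was higher, with 1.07 and 3.65 FPKM in mutants, against 0, 0 and 1.49 FPKM in WT, but WT library 3 lay between the mutants and the test was not passed (1.19, SE 0.58, adjusted p = 0.399, limma). Slc2a1b, a copy of GLUT1, the carrier of general glucose uptake, had 3.13 and 1.55 FPKM in mutants, against 4.57, 4.33 and 2.46 FPKM in WT, so that mutant library 1 lay within the WT range. Slc2a8, a carrier of internal membranes, had 2.39 and 3.13 FPKM in mutants, against 2.10, 1.65 and 3.06 FPKM in WT, which overlapped. Slc2a1a was listed at 0 in every library, and slc2a3a and slc2a3b, copies of the neuronal GLUT3, stayed at or under 0.837 FPKM. The SLC2A sum was 109 and 138 FPKM in mutants, against 115, 135 and 144 FPKM in WT, and it was the only one of the 16 steps whose mutant library 2 value exceeded the mean of WT.

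Hexokinases, which trap glucose as glucose-6-phosphate, were low in every library. Their sum was 9.61 and 5.17 FPKM in mutants, against 13.4, 11.0 and 7.02 FPKM in WT. The HK1 row on chromosome 1 had 3.64 and 0.108 FPKM in mutants, against 5.24, 4.56 and 4.06 FPKM in WT, and so lay lower in both mutants. Hk2, the inducible form, had 2.21 and 3.27 FPKM in mutants, against 2.06, 3.29 and 0.963 FPKM in WT, which overlapped. In mutant library 2 hk2 made 63.2% of the hexokinase FPKM, against 22.9% in mutant library 1 and 13.7% to 29.8% in WT.

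**Figure D2:**
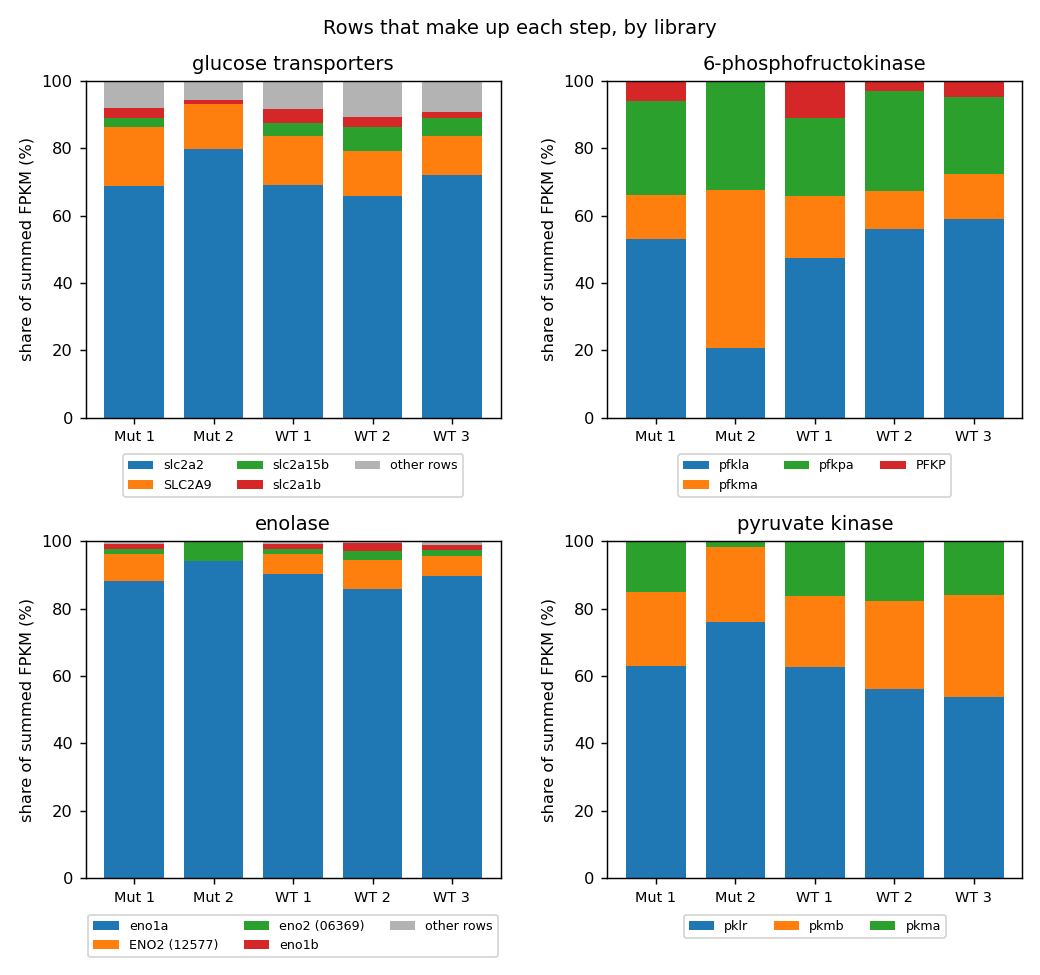
Share of each step's summed FPKM (y axis, %) held by its rows in every library, for 4 steps, with the end of the gene ID where a symbol occurs on more than 1 row. Slc2a2 and eno1a hold most of their step in all 5 libraries, whereas the rows of the low 6-phosphofructokinase step take other shares in mutant library 2.

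Gpia, glucose-6-phosphate isomerase, was among the high genes, with 170 and 105 FPKM in mutants, against 183, 195 and 227 FPKM in WT. Both mutants were below every WT library, and the difference of -0.59 (SE 0.26, adjusted p = 0.399, limma) did not pass. 6-phosphofructokinase, the committing enzyme, was low. Its highest row except in mutant library 2 was the liver form pfkla, with 7.19 and 1.36 FPKM in mutants, against 8.80, 12.6 and 7.40 FPKM in WT. Mutant library 1 lay just under the lowest WT library and mutant library 2 far below it. The platelet-type copy pfkpa and the muscle-type copy pfkma overlapped between the groups, and pfkma made 46.9% of the step in mutant library 2, against 12.9% in mutant library 1 and 11.2% to 18.4% in WT.

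The PFKFB enzymes make and remove fructose-2,6-bisphosphate, the strongest known activator of 6-phosphofructokinase, and 4 of the 6 rows were lower in mutants (3 with quantile normalization). Pfkfb4b was the main one, with 46.5 and 31.5 FPKM in mutants, against 61.8, 58.4 and 46.0 FPKM in WT, so that mutant library 1 lay within the WT range. Pfkfb4a had 4.42 and 5.47 FPKM in mutants, against 7.73, 8.58 and 7.71 FPKM in WT, with no overlap, and its span in the annotation overlaps that of arpc4l. Pfkfb2a had 0.821 and 6.19 FPKM in mutants, against 0.759, 1.14 and 0.673 FPKM in WT. Only mutant library 2 stood out, and the difference was 0.97 (SE 0.62, adjusted p = 0.425, limma).

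Aldolases split fructose-1,6-bisphosphate into triose phosphates. Aldoa, the muscle and general form (ENSORLG00000006367, chromosome 19, 7789311 to 7797482, minus strand, in the table's annotation), had 34.0 and 10.8 FPKM in mutants, against 44.3, 46.1 and 37.4 FPKM in WT. The mutants did not overlap WT, at 0.798 and 0.253 times the WT mean, and the difference of -1.10 (SE 0.44, unadjusted p = 0.0408, adjusted p = 0.399, limma) became -0.31 without mutant library 2. Aldocb, a copy of the brain form, had 64.3 and 41.4 FPKM in mutants, against 63.9, 65.7 and 71.1 FPKM in WT, with mutant library 1 in the WT range.

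Tpi1b, triosephosphate isomerase, had 180 and 195 FPKM in mutants, against 176, 223 and 238 FPKM in WT. It overlapped between the groups and was, with slc2a2, the high gene that was not below every WT library in mutant library 2. Gapdh, glyceraldehyde-3-phosphate dehydrogenase, had 1350 and 697 FPKM in mutants, against 1209, 1323 and 1341 FPKM in WT. The WT libraries lay close together, mutant library 1 was just above them and mutant library 2 far below, and the difference was -0.41 (SE 0.31, adjusted p = 0.477, limma), or 0.066 without mutant library 2. Gapdhs, the second GAPDH row, repeated that order except that mutant library 1 fell within WT, with 68.8 and 43.4 FPKM in mutants, against 67.5, 72.6 and 79.9 FPKM in WT.

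Pgk1, phosphoglycerate kinase, which yields the first ATP of the pathway, had 154 and 52.7 FPKM in mutants, against 208, 153 and 147 FPKM in WT. Mutant library 1 lay within the WT range and mutant library 2 was at 0.311 times the WT mean (-0.88, SE 0.43, adjusted p = 0.399, limma). Pgam1a, phosphoglycerate mutase, had 102 and 43.9 FPKM in mutants, against 97.3, 72.7 and 71.5 FPKM in WT, the mutants again being the highest and the lowest library. The muscle form pgam2 was lower, at 17.4 and 7.77 FPKM in mutants and 14.0 to 21.5 FPKM in WT.

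Eno1a, alpha-enolase (ENSORLG00000005625, chromosome 7, 10470223 to 10480245, minus strand), had 45.2 and 26.8 FPKM in mutants, against 61.8, 47.9 and 63.6 FPKM in WT. The groups did not overlap, the mutants being at 0.782 and 0.464 times the WT mean. The difference was -0.70 (SE 0.30, unadjusted p = 0.0472, adjusted p = 0.399, limma) and -0.34 without mutant library 2. ENO2, the neuronal form, on chromosome 16, had 4.11 and 0 FPKM in mutants, against 4.05, 4.79 and 4.30 FPKM in WT.

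Pyruvate kinase, which makes pyruvate and ATP, had 3 rows, all lower in mutants. Pklr had 36.7 and 17.8 FPKM in mutants, against 41.7, 38.0 and 32.6 FPKM in WT, and the table describes this row as the M-type enzyme PKM although its symbol names the liver and red cell form. Pkmb had 12.8 and 5.26 FPKM in mutants, against 13.9, 17.6 and 18.3 FPKM in WT, with no overlap. Pkma had 8.72 and 0.385 FPKM in mutants, against 10.8, 12.1 and 9.61 FPKM in WT, also without overlap (-1.68, SE 0.76, adjusted p = 0.399, limma).

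**Figure D3:**
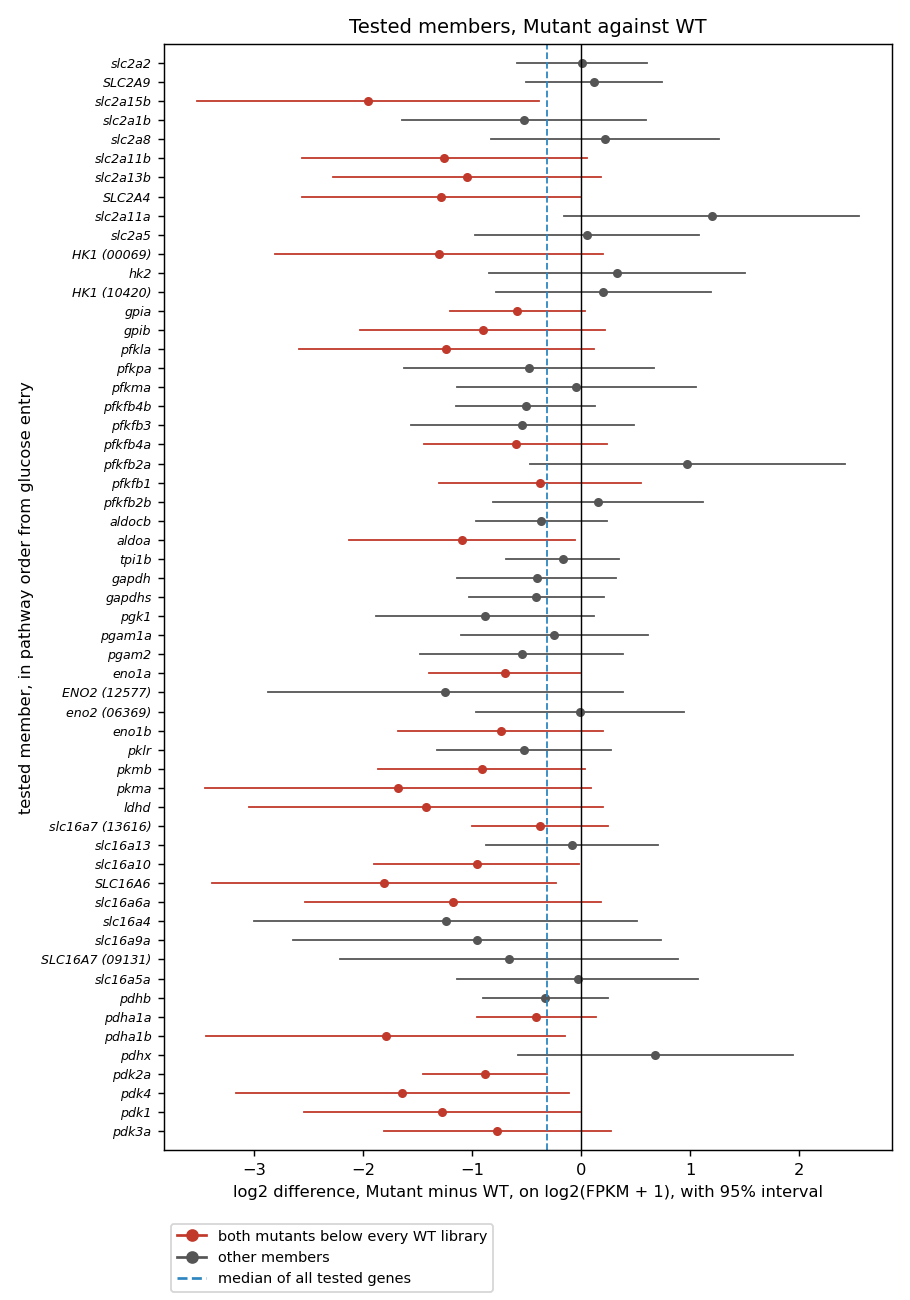
Mutant minus WT difference in log2(FPKM + 1) with its 95% interval from limma for 57 tested genes of the group, in pathway order, with genes whose mutants are both below every WT library in red and the median of all genes as a dashed line. Most points lie left of 0, and no gene passed after adjustment. Of the 59 tested genes, 10 have intervals that end below 0 (background 7.60%), pdk2a, aldoa and eno1a among them. SLC2A4, also among the 10, passed the filter through WT libraries alone.

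Lactate dehydrogenase, which turns pyruvate into lactate, was low under its own symbols. Ldha was listed at 0 in all 5 libraries, ldhbb stayed at or under 0.500 FPKM, and ldhd, which acts on D-lactate in mitochondria, had 5.29 and 0.206 FPKM in mutants, against 6.45, 7.18 and 5.63 FPKM in WT. The ldha row (chromosome 6, 32088667 to 32095456, plus strand) lies wholly inside the span of tsg101a on the other strand, at 13.5 and 13.1 FPKM in mutants and 15.4 to 23.5 FPKM in WT, and the sources used here do not say how reads in shared spans were assigned. A row without a symbol, outside the 78, is described as the L-lactate dehydrogenase B chain (ENSORLG00000009988, chromosome 23) and carried most of the signal for this enzyme. It had 72.9 and 59.3 FPKM in mutants, against 98.3, 99.2 and 113 FPKM in WT. The mutants lay under all WT libraries (-0.65, SE 0.22, unadjusted p = 0.0201, adjusted p = 0.399, limma).

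The monocarboxylate carriers of the SLC16A family, some of which carry lactate and pyruvate and others amino acids or hormones, had 12 rows. All 9 tested were lower in mutants in the deposited scaling (background 65.9%), and 4 of them had no overlap (background 26.0%). Of the 9, 7 were lower with median-of-ratios scaling and 6 with quantile normalization. Without mutant library 2 the difference turned above 0 for slc16a4, slc16a9a and the SLC16A7 row on chromosome 23 (0.070, 0.26 and 0.43). The other tested rows stayed below 0. Mutant library 1 was above every WT library for slc16a9a and that SLC16A7 row. Slc16a7, a copy of MCT2, had 15.8 and 14.3 FPKM in mutants, against 20.5, 19.9 and 19.1 FPKM in WT (-0.38, SE 0.27, adjusted p = 0.455, limma). SLC16A6 had 2.86 and 0.105 FPKM in mutants, against 5.96, 3.60 and 10.9 FPKM in WT (-1.81, SE 0.67, adjusted p = 0.399, limma). Slc16a10, a carrier of aromatic amino acids, had 8.92 and 4.21 FPKM in mutants, against 11.3, 16.2 and 11.9 FPKM in WT, again without overlap. Slc16a3, a copy of the lactate exporter MCT4, and slc16a1a, a copy of MCT1, stayed at or under 0.701 FPKM, and a row without a symbol described as MCT1 had 2.07 and 0.0734 FPKM in mutants, against 2.36, 1.61 and 1.76 FPKM in WT. The family's sum was 57.5 and 37.0 FPKM in mutants, against 69.8, 72.5 and 76.8 FPKM in WT, so that both mutants lay below every WT library.

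Pyruvate dehydrogenase turns pyruvate into acetyl-CoA. Pdhb, its E1 beta subunit, had 153 and 103 FPKM in mutants, against 167, 142 and 167 FPKM in WT, with mutant library 1 in the WT range. Pdha1a, an E1 alpha subunit, had 53.5 and 41.4 FPKM in mutants, against 58.3, 66.5 and 64.5 FPKM in WT, with no overlap. Its copy pdha1b had 4.62 and 0.0586 FPKM in mutants, against 6.82, 9.34 and 6.51 FPKM in WT, also without overlap (-1.80, SE 0.70, adjusted p = 0.399, limma). Pdhx, which anchors the E3 subunit, was high in mutant library 2, with 2.44 and 7.99 FPKM in mutants, against 2.50, 1.89 and 3.15 FPKM in WT, while mutant library 1 was within WT.

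The pyruvate dehydrogenase kinases, which phosphorylate and switch off that complex, were the step at which mutant library 1 stood furthest below WT. Of the 4 rows pdk2a, pdk4 and pdk1 had both mutants below every WT library (background 26.0%), and pdk3a did so by a margin near 0 after passing the filter through WT libraries alone. The sum of the 4 was 112 and 64.8 FPKM in mutants, against 169, 174 and 163 FPKM in WT, or 0.668 and 0.385 times the WT mean. Pdk2a carried most of it (ENSORLG00000012173, chromosome 19, 18812069 to 18818489, minus strand), with 95.4 and 62.6 FPKM in mutants, against 148, 145 and 138 FPKM in WT. The mutants averaged 79.0 ± 23.2 FPKM (SD, n = 2) and the WT libraries, which lay close together, 144 ± 5.14 FPKM (SD, n = 3). These rested on 6391 and 5756 reads in mutants and 10219 to 11369 reads in WT. Pdk2a had the smallest p of the group, with a difference of -0.89 (SE 0.24, 95% interval -1.45 to -0.32, unadjusted p = 0.00757, adjusted p = 0.399, limma). Without mutant library 2 the pdk2a difference was -0.59, and without mutant library 1 it was -1.19. Pdk2a did not pass in any fit that kept both mutant libraries.

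Pdk4, which fasting is known to raise and which the table describes as PDK2, had 13.2 and 1.66 FPKM in mutants, against 14.8, 20.7 and 19.5 FPKM in WT. Pdk1, a known hypoxia target, had 2.99 and 0.516 FPKM in mutants, against 5.06, 6.16 and 3.87 FPKM in WT. Pdk3a had 0.920 and 0 FPKM in mutants, against 0.923, 1.69 and 1.56 FPKM in WT, where mutant library 1 and WT library 1 were nearly equal. None of these 3 passed (adjusted p = 0.399, 0.399 and 0.404, limma).

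**Figure D4:**
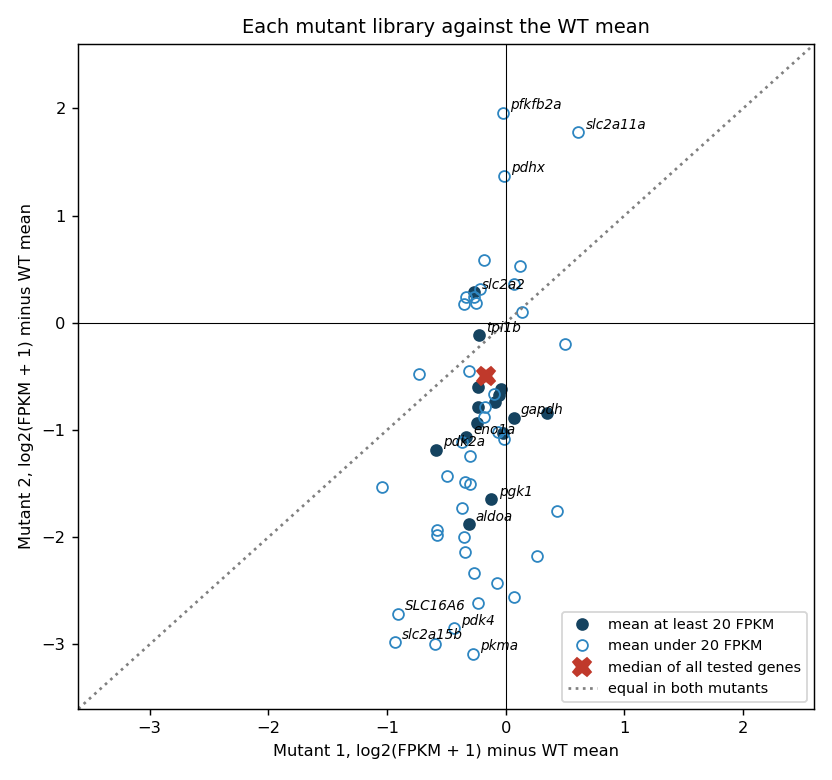
Difference of 57 tested genes from the WT mean in mutant library 1 (x axis) and mutant library 2 (y axis), as log2(FPKM + 1), with filled points for a mean of at least 20 FPKM, a cross for the median of all genes and a dotted line where both mutants are equal. The points spread far wider in mutant library 2, where the median of the 59 tested genes was -1.01, than in mutant library 1, where it was -0.23, and genes under 0 in both fall at the lower left.

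Some genes ran against the rest in single mutant libraries. Mutant library 2 was above every WT library for 9 of the 59 tested genes (background 30.7%), namely slc2a2, SLC2A9, slc2a8, slc2a11a, slc2a5, the HK1 row on chromosome 3, pfkfb2a, eno2 and pdhx. Mutant library 1 was above every WT library for 7 (background 16.0%), with gapdh and pgam1a among its high genes.

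Related pathways were described by 7 lists, and no gene of any passed the test (lowest adjusted p = 0.399, limma). Of the glycogen genes 11 of 13 tested were lower in mutants (10 with quantile normalization, background 65.9%), with both mutants below WT for 5 (background 26.0%). Pygl, the liver glycogen phosphorylase, which frees glucose units from glycogen, had 48.0 and 8.76 FPKM in mutants, against 52.8, 67.6 and 63.8 FPKM in WT. Its muscle counterpart pygma had 7.63 and 0 FPKM in mutants, against 8.50, 9.90 and 11.2 FPKM in WT. Both were low chiefly in mutant library 2. Pgm1, which links glycogen to glycolysis, had 55.9 and 28.0 FPKM in mutants, against 55.0, 73.2 and 71.2 FPKM in WT and overlapped.

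Gluconeogenesis, the reverse route to glucose, had 7 tested genes, as only 6 of the 9 entries of its list matched rows. Of these genes 6 were lower in mutants (background 65.9%), with a median of -1.08, against -0.31 over all genes. Mutant library 2 weighed most, at a median of -2.27 from the WT mean, while mutant library 1 stood at -0.21. The glucose-6-phosphatase rows g6pca.1 and g6pca.2 were not on the list and differed less (-0.41 and -0.55). Pck2, mitochondrial phosphoenolpyruvate carboxykinase, had 232 and 176 FPKM in mutants, against 290, 335 and 324 FPKM in WT (-0.64, SE 0.22, unadjusted p = 0.0211, adjusted p = 0.399, limma), with no overlap. Fbp1a, fructose-1,6-bisphosphatase, had 22.9 and 8.36 FPKM in mutants, against 86.4, 30.1 and 33.0 FPKM in WT, and WT library 1 stood well above the other two. Pcxb, pyruvate carboxylase, had 9.89 and 1.27 FPKM in mutants, against 9.97, 13.9 and 10.9 FPKM in WT, with mutant library 1 just under the lowest WT library.

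In the pentose phosphate branch, which makes NADPH and ribose, 6 of 9 genes were lower (5 with either other scaling). Tktb, a transketolase, had 58.5 and 44.6 FPKM in mutants, against 73.2, 91.3 and 80.8 FPKM in WT. Pgd, 6-phosphogluconate dehydrogenase, had 26.0 and 8.94 FPKM in mutants, against 34.4, 31.9 and 40.7 FPKM in WT. Both had their groups apart, whereas tkta, at 5.29 and 0 FPKM in mutants and 4.98 to 6.95 FPKM in WT, did not.

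Of the 20 genes of pyruvate entry and the citrate cycle, 15 were lower (14 with either other scaling), with a median of -0.33, close to that of all genes. Pdp1, the phosphatase that reverses the action of the kinases above, had 3.30 and 0.681 FPKM in mutants, against 5.05, 7.23 and 5.09 FPKM in WT. Suclg2, a subunit of succinyl-CoA ligase, had 45.4 and 26.8 FPKM in mutants, against 48.6, 66.0 and 55.5 FPKM in WT. Neither overlapped between the groups. The mitochondrial pyruvate carrier gene mpc1 was high and overlapped, at 1031 and 844 FPKM in mutants, against 1008, 904 and 1210 FPKM in WT, and was named after its values were seen.

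The shuttles that return cytosolic NADH to mitochondria had 5 of 6 genes lower. Gpd1a, glycerol-3-phosphate dehydrogenase, had 99.1 and 50.3 FPKM in mutants, against 129, 141 and 108 FPKM in WT. GOT1, an aspartate aminotransferase row, had 30.2 and 26.4 FPKM in mutants, against 38.3, 45.2 and 45.1 FPKM in WT. Neither overlapped, and the second row, got1, did.

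Among partners and regulators, 3 of 6 genes were lower (1 with quantile normalization). Txnipa, a copy of the arrestin that removes glucose carriers from the membrane and is induced by glucose in mammals, had 404 and 106 FPKM in mutants, against 599, 535 and 491 FPKM in WT (-1.38, SE 0.50, unadjusted p = 0.0263, adjusted p = 0.399, limma). Both mutants were below every WT library. Tigarb, a copy of a fructose-2,6-bisphosphatase, had 7.76 and 26.5 FPKM in mutants, against 10.9, 4.22 and 9.87 FPKM in WT, high in mutant library 2 only. Ppargc1a, a coactivator of mitochondrial genes, had 1.63 and 0.426 FPKM in mutants, against 1.67, 2.67 and 1.21 FPKM in WT.

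The hypoxia-response list, whose programme is known to raise glycolytic genes, was split, with 5 of 13 genes higher and 8 lower (7 with quantile normalization). Egln3, a prolyl hydroxylase that marks HIF for decay, had 19.9 and 47.3 FPKM in mutants, against 10.4, 9.18 and 11.1 FPKM in WT (1.505, SE 0.40, unadjusted p = 0.00617, adjusted p = 0.399, limma). P4ha1b, a collagen prolyl hydroxylase, had 51.3 and 65.2 FPKM in mutants, against 24.8, 35.3 and 31.1 FPKM in WT (0.92, SE 0.26, unadjusted p = 0.00933, adjusted p = 0.399, limma). These are the 2 genes of the list with both mutants above every WT library (background 8.33%). Both mutants were below every WT library for 4 of the 13 (background 26.0%). Hif1al, a HIF-alpha row, had 18.7 and 12.0 FPKM in mutants, against 24.6, 31.1 and 28.4 FPKM in WT, with both mutants lower.

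The labelled cell types were checked against their markers, and so were others that could have come along. Osteoblast markers were high in all libraries, with sp7 at 212 and 251 FPKM in mutants and 193 to 279 FPKM in WT, and a sum over the 7 genes matched of 13162 to 13290 FPKM in mutants, against 14361 to 15232 FPKM in WT. The 7 were split, with 4 higher and 3 lower in mutants. Sparc and col1a1b were below every WT library in both mutants (background 26.0%), while ifitm5 and phospho1 were above (background 8.33%). Cartilage markers were low and lower in mutants. All 9 matched rows were lower (8 with quantile normalization), and the sum was 114 and 153 FPKM in mutants, against 260 to 339 FPKM in WT, although none passed the test. The cartilage sum was lower in mutant library 1 than in mutant library 2.

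Liver, gut and pancreas markers, 22 rows, were present as a set in every library, and apoa1b held most of their sum. They summed to 74293 and 28416 FPKM in mutants, against 44297 to 53678 FPKM in WT, so that mutant library 1 was the highest and mutant library 2 the lowest, and 9 of the 22 were listed at 0 in mutant library 2. The plasma lipoprotein gene apoa1b alone had 49418 and 15232 FPKM in mutants, against 36657, 28251 and 28834 FPKM in WT. The liver fatty acid binding gene fabp10a had 13745 and 8633 FPKM in mutants, against 7002, 5261 and 4795 FPKM in WT, and was above WT in both mutants. For tfa, fgb and fga of the same list, mutant library 1 lay within the WT range and mutant library 2 below it. Muscle markers, 14 rows, of which a TNNI2 row is at 0 throughout, summed to 1437 and 795 FPKM in mutants, against 1169 to 1802 FPKM in WT. Epidermal markers, 7 rows of which 2 were at 0 in mutant library 2, summed to 1229 and 603 FPKM in mutants, against 736 to 1594 FPKM in WT. Erythrocyte markers (5 rows, 3 at 0 in mutant library 2) came to at most 8.45 FPKM in any library. Macrophage and osteoclast markers (7 rows, 4 at 0 in mutant library 2), mostly ctsk, summed to 64.9 and 113 FPKM in mutants, against 91.2 to 99.9 FPKM in WT. Neuron and retina markers, 17 rows with 13 at 0 in mutant library 2, consisted almost wholly of rbp4, a plasma protein gene. Their part in the levels of the glycolytic genes was not tested.

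Some rows of the group share a symbol or position. Symbols repeat on 6 rows (2 HK1, ENO2 and eno2, SLC16A7 and slc16a7), and their sequences were not compared. Copies that are near-identical could have split their reads, and values of single copies would then be less certain than their sums. The spans of 27 of the 78 overlap another gene, 20 of them tested. Slc2a3b, gapdh, ENO2 and tpi1b lie within 499 kb on chromosome 16 (19964212 to 20463137), and slc2a3a, eno2 and tpi1a within 276 kb on chromosome 11 (15348050 to 15624516), in the coordinates of the deposited table, whose build the sources used here do not name. The chromosome 16 copies gapdh and tpi1b were high, and tpi1a, which is largely inside the span of eno2 on the opposite strand, had at most 0.00834 FPKM.

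The 19 genes that were not tested had no value above 2.05 FPKM (PFKP in WT library 1), and 3 of them, aldoca, ldha and slc2a1a, were listed at 0 in all libraries. Beyond the 78, 11 rows without a symbol carry a description with a protein name of these families, among them the phosphatase PGAM5, and 7 were tested. Apart from the lactate dehydrogenase B row, the highest was a row described as monocarboxylate transporter 12-B, with 38.3 and 26.3 FPKM in mutants, against 40.7, 69.0 and 49.9 FPKM in WT. Here too the groups did not overlap (-0.69, SE 0.31, adjusted p = 0.399, limma).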

How the data were processed

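RNA-seq of 2 Mutant and 3 WT libraries was used. Kits were Direct-zol RNA MicroPrep for isolation and SMARTER mRNA-Seq for libraries, per the labels' protocols. The tools named are HISAT2 2.0.5, an aligner, and featureCounts 1.5.0-p3, a read counter, per the submitters' processing notes. The sources used here do not name the build, annotation or strand setting, so overlapping and antisense genes cannot be told apart. The deposited table, per the file headers, holds FPKM made by the authors for each gene and library, with a gene length. FPKM times length gave whole reads for 100% of values within 0.02 reads, and these reads gave the library totals. The scaling of the FPKM implied a denominator of 0.980 and 1.23 times the reads in mutant libraries 1 and 2 and 1.04 to 1.08 times in WT, on a basis that the sources used here do not state.

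Groups follow the labelled genotype. The test was limma 3.58.1 (R 4.3.3) on log2(FPKM + 1), with a mean-variance trend and without covariates, for 13680 genes that reached 1 FPKM in 2 or more libraries. P-values were adjusted by Benjamini-Hochberg over all of these, with a threshold of 0.05. Intervals and p-values assume that the 2 mutants vary like WT around their means. A lone mutant, where the other is left out, is assumed to vary like the rest. Alternatives were a pseudocount of 0.1 FPKM, no filter, a filter at 5 FPKM, quantile normalization, median-of-ratios scaling, a block for the replicate number, voom on reads, and leaving out each library. The procedure was tested on simulated data in which all libraries had the same spread. A library like mutant library 2 was not simulated. Tables and plots used python 3.11.15, numpy 2.4.6, pandas 2.3.3 and matplotlib 3.10.9.

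Genes are named with values by library if their mean is at least 20 FPKM, or if they are among up to 6 higher and 6 lower by smallest p that average 2 FPKM or more in Mutant or WT. Of 7 lists of related genes up to 3 each with the smallest p are named. Other genes given with values were named after their values were seen. There were 8 lists of cell type markers. Genes and lists were chosen with earlier results of these data known, so their directions are no independent evidence. Some items that the rule would name are not reported here and are left out of the plots. No sequence is printed.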

Additional observations from a re-analysis of the deposited data

How the results depend on the processing

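The number of genes called over the whole table was 1 in the test as reported and under most alternatives, 145 with the replicate block, and 1 to 7239 with each library left out in turn. The number of glycolysis and transport genes called was 0 under every setting except without mutant library 1, where it was 40 of 58 (37 lower, 3 higher) beside 54.3% of all genes, since that fit sets mutant library 2 alone against WT. Leaving out each library gave 0 to 40. Without mutant library 2 it was 0.

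The median log2 difference of the tested genes, -0.55, was -0.69 with a pseudocount of 0.1 FPKM, -0.41 with no filter, -0.44 with median-of-ratios scaling, -0.40 with quantile normalization, -0.64 with the replicate block, -0.64 with voom, and -1.02 to -0.24 with each library left out. Its sign stayed, and it was lower than the median over all genes under every setting. Scaling moved the median over all genes from -0.31 to -0.22 (median-of-ratios) and to 0.015 (quantile), and the genes higher in mutants from 10 of 59 to 14 and 16.

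Of 532 values of the 45 named genes under 12 alternatives, 484 kept direction and side of the threshold, 40 passed it only in the alternative (37 without mutant library 1 and 3 with the block) and 8, in 6 genes, turned. With quantile normalization ppargc1a was 0.22 and slc2a2 -0.043. With each library left out, gapdh ran from -0.89 to 0.066, pgam1a from -0.84 to 0.35, pdhx from -0.014 to 1.37, tigarb from -0.0022 to 1.65 and slc2a2 from -0.27 to 0.28. The turned values came without mutant library 2 and, for slc2a2, also without WT library 1 (-0.085). The cause of these turns was not tested. Deviations from the group means correlated at 0.0577 between libraries numbered 1 and -0.0123 between libraries numbered 2. With 2 mutant libraries, their deviations mirror each other, so these values are not separate checks. Whether equal replicate numbers mark pairs cannot be decided from them. In the replicate block fit fbp1a, pygl and txnipa passed (adjusted p = 0.00858, 0.0312 and 0.00869, limma) and no glycolysis or transport gene did (lowest adjusted p = 0.195). WT library 3 has no mutant of its number, so the differences of that fit rest on the libraries numbered 1 and 2. It left 1 residual degree of freedom, and its errors came from the trend over all genes, not from each gene's own spread. The 145 genes called with the block carry the same limit. Depth limits genes near 0.1 FPKM. Of the 78 genes, 27 had no read in mutant library 2, as had 13355 of all 25689 genes. That library held 27916294 reads, within the range of the others, and the cause of its missing genes was not tested.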

Other observations

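Genes of sugar routes that join glycolysis, all chosen after their values were seen, were not called either (limma). Khk, ketohexokinase, had 78.1 and 70.7 FPKM in mutants, against 75.5, 84.8 and 77.7 FPKM in WT, and sord, sorbitol dehydrogenase, had 425 and 295 FPKM in mutants, against 483, 487 and 504 FPKM in WT. Khk overlapped between the groups, while sord was below every WT library in both mutants (-0.47, SE 0.23, adjusted p = 0.399, limma). The glucose-6-phosphatase row g6pca.2, which releases free glucose in liver, had 1121 and 491 FPKM in mutants, against 1090, 996 and 1168 FPKM in WT, so that only mutant library 2 was low.

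Some genes that draw sugar phosphates into other products, also chosen after their values were seen, mostly had a higher mean in mutants, and none was called. Of those named here only pmm1 was lower. They were picked by value, so this says nothing about such genes as a set. In the pentose phosphate branch, also such a route, 6 of 9 genes were lower. Gfpt1, the first enzyme of hexosamine synthesis, had 13.6 and 24.5 FPKM in mutants, against 5.93, 10.6 and 12.5 FPKM in WT, and was above WT in both mutants. Pmm1, a phosphomannomutase, had 29.7 and 27.4 FPKM in mutants, against 44.5, 32.5 and 35.7 FPKM in WT, and was below WT in both. Of the same list pgm3, mpi and pmm2 were higher (0.51, 1.09 and 0.42) but overlapped between the groups, and mpi was high in mutant library 2 only. Phgdh, which starts serine synthesis from 3-phosphoglycerate, had 15.2 and 47.8 FPKM in mutants, against 6.31, 6.43 and 7.11 FPKM in WT (1.88, SE 0.48, unadjusted p = 0.00499, adjusted p = 0.399, limma). Psat1, the next enzyme of serine synthesis, had 17.5 and 19.4 FPKM in mutants, against 15.0, 11.7 and 26.3 FPKM in WT and overlapped.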
